A study of Homo sapiens with 18 samples.

Results

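Aminoacyl-tRNA synthetases are the enzymes that join each amino acid to its tRNA. They were examined here as 35 human genes, chosen by name from the gene tables. Of these, 19 encode enzymes of the cytosol and 16 encode enzymes of the mitochondrion, and all 35 were found among the 63677 genes counted and passed the filter that left 15179 genes for testing. RNA came from HAP1, an adherent, near-haploid human cell line derived from a chronic myeloid leukaemia line. The 3 lines were RB1CC1KO, ATG7KO and WT, the last being the parental line. RB1CC1 is a scaffold of the complex that starts autophagy, and ATG7 is an enzyme needed to build autophagosomes. Each line was either placed in Earle's balanced salt solution (EBSS) for 6 h, which removes amino acids and serum, or kept in full medium, Iscove's modified Dulbecco's medium with 10% serum. Each of the 6 groups had 3 libraries of polyadenylated RNA, described in the labels as independent biological replicates. Each genotype is represented by 1 line, so the knockout and the line that carries it cannot be told apart.

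In the cytosol the synthetases supply charged tRNA to the ribosomes that translate nuclear-encoded messages. Several of them are held together with scaffold proteins in a multisynthetase complex. The mitochondrion has its own set, encoded by nuclear genes and imported, which charges the tRNAs used to translate the few messages of the mitochondrial genome. GARS1 and KARS1 are exceptions, since each gene encodes both the cytosolic and the mitochondrial enzyme. When amino acids run short, uncharged tRNA activates the kinase GCN2, and the transcription factor ATF4 is then made. ATF4 binds amino acid response elements, and cytosolic synthetase genes are among its known targets in mammalian cells.

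RefSeq promoter windows of build GRCh38.p14, reaching 250 bases before to 50 bases after the annotated start, were at hand for 30 of the 35 genes. LARS1, VARS1, YARS1, AARS2 and VARS2 had none. The core of the amino acid response element, searched as TGATGNAA on both strands, was present in 7 of 16 cytosolic genes, 1 of 14 mitochondrial genes and 4.46% of all 27305 genes of the table. The following stretches of 60 bases hold each of the 7 cytosolic matches, written 5′ to 3′ along the gene's strand with the match in capitals, and are shown because these genes include the strongest responders to EBSS.
AARS1: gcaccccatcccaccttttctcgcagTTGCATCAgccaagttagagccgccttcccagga
CARS1: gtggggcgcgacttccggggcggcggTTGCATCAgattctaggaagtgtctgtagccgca
GARS1: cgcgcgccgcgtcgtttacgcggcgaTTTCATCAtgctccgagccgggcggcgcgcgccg
IARS1: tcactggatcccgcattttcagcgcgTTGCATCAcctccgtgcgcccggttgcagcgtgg
MARS1: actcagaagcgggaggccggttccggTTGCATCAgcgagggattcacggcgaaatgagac
NARS1: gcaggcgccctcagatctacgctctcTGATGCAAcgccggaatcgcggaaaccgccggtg
TARS1: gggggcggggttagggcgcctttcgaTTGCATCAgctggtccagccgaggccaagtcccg

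These stretches lie at chr16:70289660-70289719 on the minus strand for AARS1, chr11:3057392-3057451 on the minus strand for CARS1 and chr7:30594819-30594878 on the plus strand for GARS1. Those of IARS1 and MARS1 lie at chr9:92293677-92293736 on the minus strand and chr12:57488038-57488097 on the plus strand. The NARS1 stretch is at chr18:57621789-57621848 on the minus strand, and the TARS1 stretch is at chr5:33440941-33441000 on the plus strand. In AARS1 the match began 187 bases before the annotated start, while in the other 6 genes it lay within 33 bases of an annotated start. CARS1, GARS1 and TARS1 each have another annotated start, whose window held no match. By window, the core was present in 7 of 21 cytosolic windows, 1 of 18 mitochondrial windows and 3.62% of all 35116 windows. All but GARS1 held the stricter form TGATGCAA, which was found in 6 of 16 cytosolic genes, 0 of 14 mitochondrial genes and 1.08% of all genes. The 1 mitochondrial match was in YARS2, shown for comparison with its match in capitals (chr12:32756061-32756120, minus strand).
YARS2: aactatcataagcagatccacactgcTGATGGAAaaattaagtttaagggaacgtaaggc

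Both other motifs searched were matched on the same windows. The core of the binding site of NRF1, a regulator of nuclear genes for mitochondrial proteins, was searched as GCGCATGC on both strands and was found in 0 of 16 cytosolic genes, 2 of 14 mitochondrial genes (MARS2 and YARS2) and 3.68% of all genes. The ETS core CCGGAAG was present in 9 of 16 cytosolic genes, 7 of 14 mitochondrial genes and 12.2% of all genes. A match describes these letters only, and no binding was measured.

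Depth was similar in most libraries. Reads in genes ranged from 11994110 to 19073798 in 16 libraries, with 4892072 in the shallowest, ATG7KO EBSS replicate 3, and 26005942 in the deepest, RB1CC1KO EBSS replicate 2. ATG7 RNA was 4.02 ± 0.44 CPM in ATG7KO cells and 15.6 ± 1.30 CPM in WT cells in full medium (SD, n = 3 each), a log2 fold change of -1.95 ± 0.12 (SE). RB1CC1 RNA was not lower in the line labelled RB1CC1KO, at 157 ± 12.7 CPM against 105 ± 10.3 CPM in WT cells in full medium (log2 fold change 0.58 ± 0.07), so its libraries are called RB1CC1KO-labelled below. Of 7 fibroblast markers, DCN and LUM had 0 reads in all 18 libraries, as did the erythroid factor GATA1. Summed markers were 27.9 to 33.0 CPM in WT EBSS and 57.8 to 68.7 CPM in WT full medium for 8 haematopoietic genes. They were 19.8 to 22.9 CPM in WT EBSS and 25.2 to 31.5 CPM in WT full medium for the fibroblast genes, and 117 to 123 CPM in WT EBSS and 103 to 113 CPM in WT full medium for 7 epithelial genes. The haematopoietic sum was 6.15 to 8.98 CPM in ATG7KO EBSS and 20.0 to 20.9 CPM in ATG7KO full medium, and 27.8 to 30.0 CPM in RB1CC1KO-labelled EBSS and 71.2 to 78.7 CPM in RB1CC1KO-labelled full medium. Their part in the results was not tested.

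Synthetase RNA shifted towards the cytosolic set after EBSS. CPM is the usual depth-scaled count, here after TMM scaling, which sets library sizes so that most genes have equal levels. The 19 cytosolic genes summed to 7990, 8065 and 7705 CPM in the WT EBSS libraries and to 4522, 4537 and 4718 CPM in the WT full medium libraries. The 16 mitochondrial genes summed to 778, 773 and 760 CPM in WT EBSS and to 960, 944 and 979 CPM in WT full medium. Neither sum overlapped between the media. GARS1 and KARS1, which encode enzymes of both compartments, were summed with the cytosolic genes only. GARS1 stood at 984 ± 45.8 CPM in WT EBSS and 315 ± 12.1 CPM in WT full medium. KARS1 stood at 243 ± 11.3 CPM in WT EBSS and 258 ± 10.9 CPM in WT full medium (SD, n = 3 each). The mitochondrial sum leaves out this RNA. The ratio of the cytosolic to the mitochondrial sum was 10.3 ± 0.15 in WT EBSS and 4.78 ± 0.06 in WT full medium (SD, n = 3 each). It was 10.7 ± 0.20 in EBSS and 4.74 ± 0.01 in full medium in RB1CC1KO-labelled cells, and 10.9 ± 0.30 in EBSS and 5.01 ± 0.11 in full medium in ATG7KO cells. In bulk RNA of this kind, fewer cells expressing a gene and less RNA per cell cannot be told apart.

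**Figure D1:**
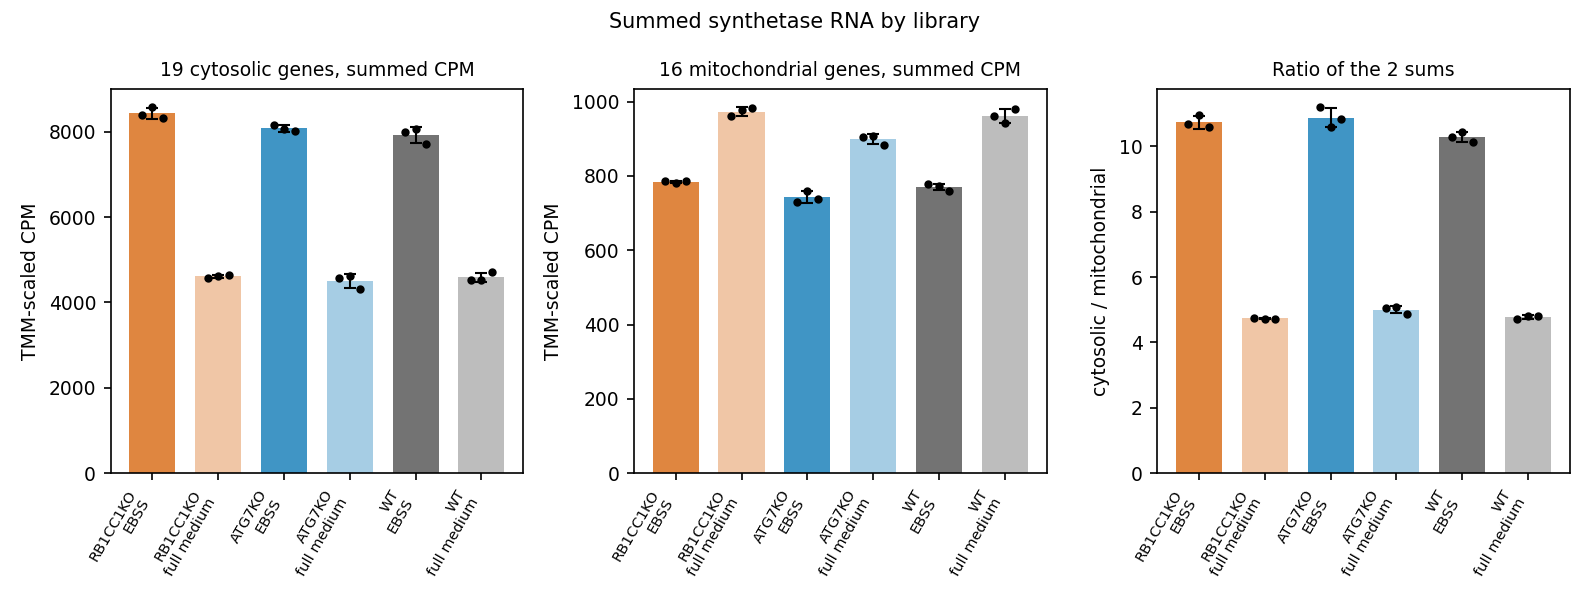
Summed TMM-scaled CPM of the 19 cytosolic genes (left) and the 16 mitochondrial genes (middle), and the ratio of both sums (right), for each line with EBSS left of full medium. Points are libraries, bars are means and error bars are SD (n = 3); all 9 EBSS libraries lie above all 9 full medium libraries in the left and right panels and below them in the middle panel.

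Among the cytosolic genes in WT cells, 12 rose after EBSS, 4 fell and 3 were not called, with a median log2 fold change of 0.60 against -0.02 over all genes tested. Calls here use edgeR's quasi-likelihood test with Benjamini-Hochberg adjustment over all 15179 genes and a threshold of 0.05, and 32.4% of all genes were called higher and 32.1% lower. Higher genes were 50.3% of the calls, against 37.4% with upper-quartile scaling, which placed the median of all genes at -0.17. Among the mitochondrial genes 2 rose, 10 fell and 4 were not called, with a median of -0.40. The groups did not overlap for 15 of the 19 cytosolic and 11 of the 16 mitochondrial genes, against 67% of all genes tested. CARS1, TARS1 and GARS1 rose most, and PARS2, MARS2 and AARS2 fell most.

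CARS1, the cysteine enzyme, stood at 318, 306 and 312 CPM in WT EBSS and at 78.4, 67.0 and 73.5 CPM in WT full medium. All EBSS libraries were above all full medium libraries, and the log2 fold change was 2.10 ± 0.06 (SE; adjusted p = 7.21e-25), or 4.28-fold. TARS1, the threonine enzyme, stood at 1024, 1084 and 952 CPM in EBSS and at 293, 314 and 309 CPM in full medium. It rose by 1.74 ± 0.06 on the log2 scale (adjusted p = 1.08e-23), without overlap. GARS1, which charges glycine tRNA in both compartments, stood at 984, 1030 and 939 CPM in EBSS and at 301, 323 and 321 CPM in full medium. Its log2 fold change was 1.64 ± 0.06 (adjusted p = 4.9e-23), again without overlap.

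SARS1, the serine enzyme, stood at 420, 427 and 406 CPM in WT EBSS and at 186, 185 and 189 CPM in WT full medium. The groups were well apart, with a log2 fold change of 1.16 ± 0.06 (adjusted p = 2.72e-19). MARS1, the methionine enzyme, stood at 598, 564 and 579 CPM in EBSS and at 266, 255 and 273 CPM in full medium, and its groups did not overlap either (1.13 ± 0.05, adjusted p = 4.6e-19). Part of MARS1 shares 355 exon bases with the stress factor gene DDIT3 on the opposite strand in the GENCODE 29 annotation. DDIT3 itself stood at 154 ± 2.37 CPM in WT EBSS and 8.28 ± 0.89 CPM in WT full medium (SD, n = 3 each), and reads in the shared bases cannot be assigned with certainty, since whether the counting used strand is not given in the sources used here. NARS1, the asparagine enzyme, stood at 525, 534 and 464 CPM in EBSS and at 222, 251 and 250 CPM in full medium (1.07 ± 0.07, adjusted p = 4.33e-16), with every EBSS library above every full medium library.

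The other 6 cytosolic genes that rose in WT did so by less. AARS1, the alanine enzyme, was at 1.07 ± 0.06, WARS1, the tryptophan enzyme, at 0.92 ± 0.05, and YARS1, the tyrosine enzyme, at 0.85 ± 0.06 on the log2 scale. EPRS1, a fused enzyme for glutamate and proline, was at 0.60 ± 0.06 and IARS1, the isoleucine enzyme, at 0.51 ± 0.06. QARS1, the glutamine enzyme, was at 0.16 ± 0.06 (adjusted p = 0.0176). That call was lost without WT EBSS replicate 1 or 3 (adjusted p = 0.107 and 0.0756), without WT full medium replicate 2 (0.166), without the filter on low counts (0.0628) and with upper-quartile scaling (0.889). VARS1 (0.10 ± 0.07), LARS1 (0.05 ± 0.06) and KARS1 (-0.09 ± 0.06), which serve valine, leucine and lysine, were not called.

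A minority of the cytosolic genes fell. RARS1, the arginine enzyme, stood at 100, 104 and 84.4 CPM in WT EBSS and at 126, 138 and 135 CPM in WT full medium, without overlap (log2 fold change -0.47 ± 0.07, adjusted p = 6.96e-07). HARS1, the histidine enzyme, stood at 70.5, 70.0 and 71.6 CPM in EBSS and at 95.8, 91.6 and 102 CPM in full medium, also without overlap (-0.45 ± 0.06, adjusted p = 2.52e-07). The phenylalanine enzyme of the cytosol is built from the products of FARSA and FARSB. FARSA stood at 143, 136 and 141 CPM in EBSS and at 198, 178 and 180 CPM in full medium (-0.40 ± 0.08, adjusted p = 2.77e-05), and FARSB was at -0.20 ± 0.07 (adjusted p = 0.00825, lost without WT EBSS replicate 3 at 0.0872). FARSA was not called in RB1CC1KO-labelled cells (-0.07 ± 0.08, adjusted p = 0.403) or in ATG7KO cells (-0.16 ± 0.08, adjusted p = 0.0796), though in ATG7KO cells it was called without EBSS replicate 2 (0.0133) or full medium replicate 2 (0.0363), with RLE scaling (0.0481), when only the compared groups were fitted (0.0207) and without the filter (0.0328). With upper-quartile scaling it was called in RB1CC1KO-labelled (-0.22, 0.017) and in ATG7KO cells (-0.32, 0.00111). The difference of its response from WT was not called for RB1CC1KO-labelled cells (0.33 ± 0.11, adjusted p = 0.0524) or for ATG7KO cells (0.25 ± 0.11, 0.278).

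**Figure D2:**
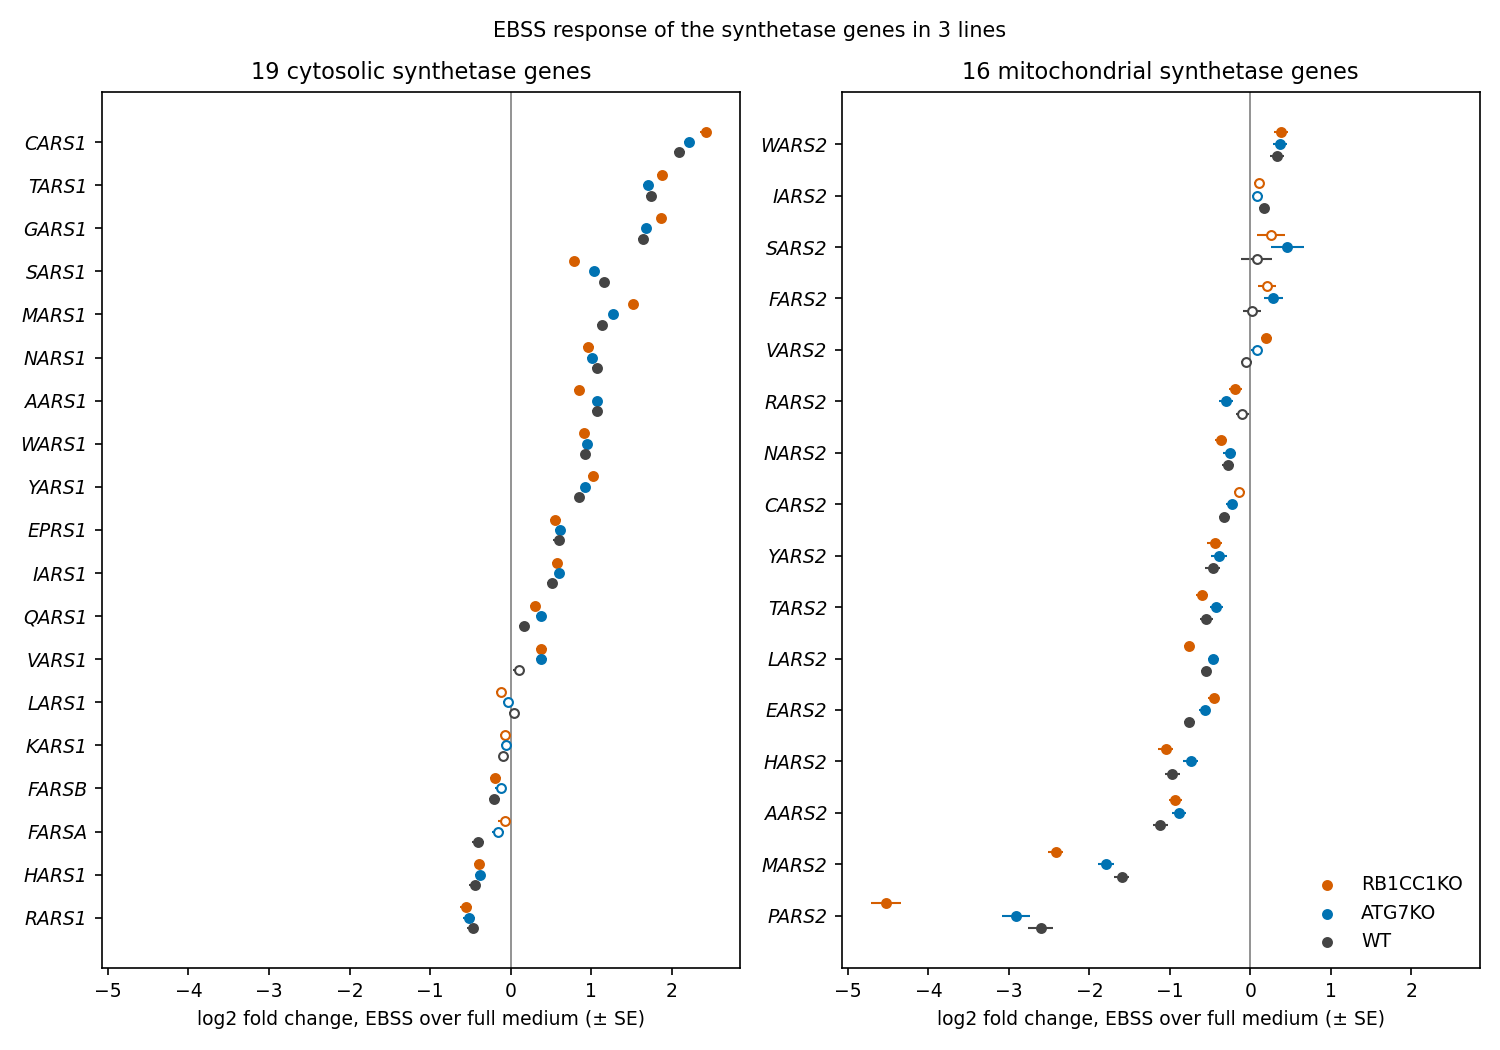
Log2 fold change of EBSS over full medium (horizontal axis, ± SE) for the 19 cytosolic genes (left) and the 16 mitochondrial genes (right) in RB1CC1KO-labelled, ATG7KO and WT cells, ordered by the WT value. Filled points passed the threshold of 0.05 on the adjusted p and open points did not; most cytosolic genes lie right of 0 and most mitochondrial genes left of it, with CARS1 and PARS2 at the ends.

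The mitochondrial genes ranged from -2.61 to 0.33 in WT cells. PARS2, the proline enzyme, stood at 2.34, 2.44 and 2.31 CPM in WT EBSS and at 15.3, 14.8 and 13.1 CPM in WT full medium. These levels rest on 33, 39 and 36 reads in EBSS and on 210, 298 and 166 reads in full medium, and the groups were far apart (-2.61 ± 0.15, adjusted p = 1.1e-16). MARS2, the methionine enzyme, stood at 15.3, 14.1 and 13.6 CPM in EBSS and at 44.3, 41.7 and 44.3 CPM in full medium (-1.60 ± 0.09, adjusted p = 8.86e-17). Every EBSS library of MARS2 lay below every full medium library. AARS2, the alanine enzyme, stood at 18.9, 15.0 and 18.6 CPM in EBSS and at 38.5, 36.1 and 39.3 CPM in full medium, without overlap (-1.12 ± 0.09, adjusted p = 2.86e-13).

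HARS2, the histidine enzyme, stood at 13.9, 13.9 and 15.3 CPM in WT EBSS and at 29.5, 25.7 and 29.5 CPM in WT full medium, without overlap (-0.97 ± 0.09, adjusted p = 3.64e-11). EARS2 charges the mitochondrial tRNAs of glutamate and, as a first step, those of glutamine. It stood at 72.4, 75.3 and 78.0 CPM in EBSS and at 127, 122 and 133 CPM in full medium (-0.76 ± 0.07, adjusted p = 3.86e-12), so the groups were apart. LARS2, the leucine enzyme, stood at 83.9, 85.8 and 81.6 CPM in EBSS and at 118, 121 and 128 CPM in full medium, likewise without overlap (-0.55 ± 0.06, adjusted p = 2.12e-09). The other 4 that fell were TARS2 (-0.55 ± 0.08), YARS2 (-0.47 ± 0.09), CARS2 (-0.33 ± 0.07) and NARS2 (-0.28 ± 0.08), the enzymes for threonine, tyrosine, cysteine and asparagine.

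WARS2, the tryptophan enzyme, rose. It stood at 30.2, 30.8 and 29.5 CPM in WT EBSS and at 20.8, 25.0 and 26.1 CPM in WT full medium, without overlap (0.33 ± 0.09, adjusted p = 0.00163), and the call was lost with upper-quartile scaling (0.18, adjusted p = 0.0705). IARS2, the isoleucine enzyme, stood at 234, 226 and 204 CPM in EBSS and at 190, 194 and 205 CPM in full medium, and here the groups overlapped (0.17 ± 0.06, adjusted p = 0.018). The IARS2 call was lost without WT EBSS replicate 1 or 2 (adjusted p = 0.227 and 0.0577) and without WT full medium replicate 1 or 2 (0.0718 and 0.0512). SARS2 (0.08 ± 0.20), FARS2 (0.02 ± 0.11), VARS2 (-0.05 ± 0.07) and RARS2 (-0.10 ± 0.08) were not called. SARS2 was counted with only 199 reads over the WT EBSS libraries and 192 over the WT full medium libraries, and it shares 1492 exon bases with another gene on the same strand, as VARS2 shares 1858 with GTF2H4.

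**Figure D3:**
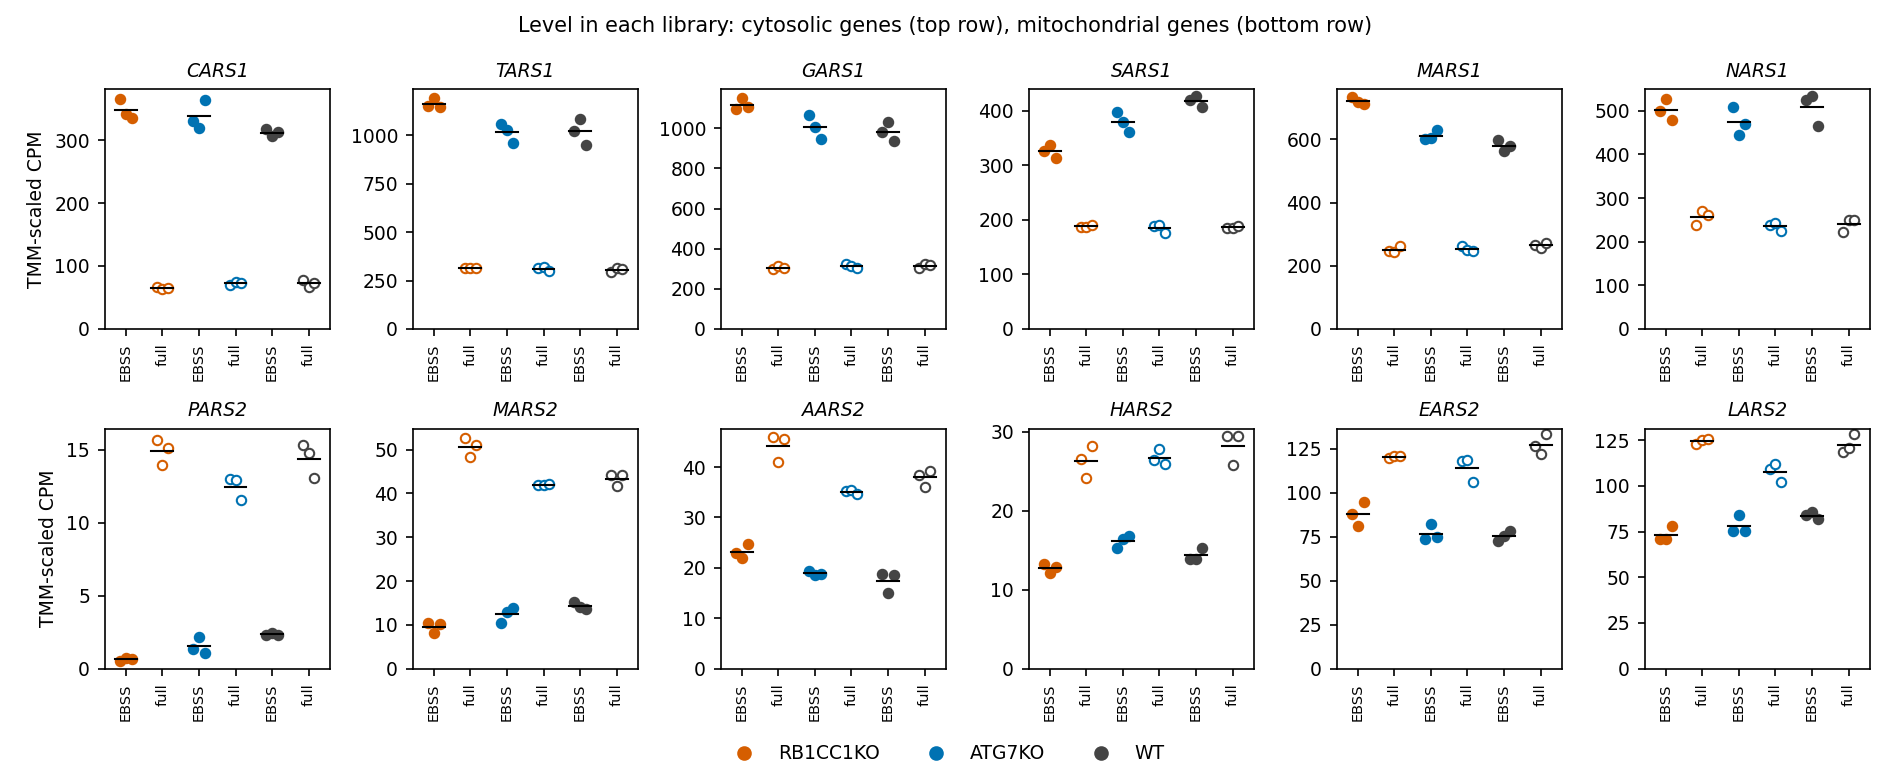
TMM-scaled CPM (vertical axes, from 0) in each of the 18 libraries for the 6 cytosolic genes that rose most (top) and the 6 mitochondrial genes that fell most (bottom) in WT, with EBSS (filled) left of full medium (open) for each line. Horizontal lines are means of 3 libraries; in each panel EBSS and full medium do not overlap within a line.

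The genes for the same amino acid were then set side by side. There were 17 such pairs, with EPRS1 set against both EARS2 and PARS2, and FARS2 set against both FARSA and FARSB. The log2 fold change of the cytosolic gene was above that of the mitochondrial gene in 14 of 17 pairs in each of the 3 lines. The median difference, cytosolic minus mitochondrial, was 0.66 in RB1CC1KO-labelled, 0.58 in ATG7KO and 1.08 in WT cells. In WT the widest gaps were 3.20 for EPRS1 and PARS2, 2.73 for MARS1 and MARS2, and 2.42 for CARS1 and CARS2. The exceptions in all 3 lines were the arginine pair and both phenylalanine pairs, at -0.37 for RARS1 and RARS2, -0.42 for FARSA and FARS2, and -0.22 for FARSB and FARS2 in WT.

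**Figure D4:**
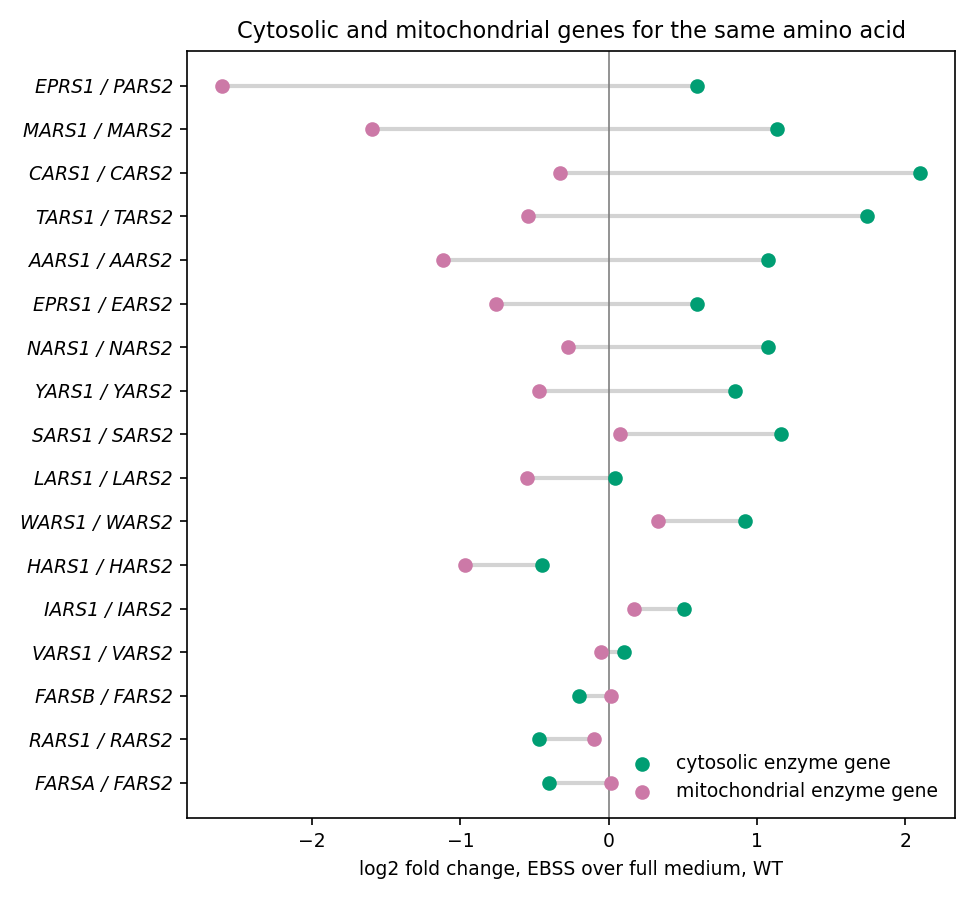
Log2 fold change of EBSS over full medium in WT cells for the cytosolic and the mitochondrial gene of each of 17 pairs that serve the same amino acid, ordered by the difference. In 14 pairs the cytosolic gene lies to the right; the arginine pair and both phenylalanine pairs run the other way.

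The histidine pair fell together. HARS1 and HARS2 face away from each other on chromosome 5, with annotated starts 85 bases apart. Their RefSeq windows share 184 bases, chr5:140691321-140691504, printed here on the plus strand because the stretch holds both annotated starts. The stretch covers the bases between the starts and also bases past each start, inside the genes. The capitals mark 2 ETS cores, 1 on each strand.
HARS1 and HARS2: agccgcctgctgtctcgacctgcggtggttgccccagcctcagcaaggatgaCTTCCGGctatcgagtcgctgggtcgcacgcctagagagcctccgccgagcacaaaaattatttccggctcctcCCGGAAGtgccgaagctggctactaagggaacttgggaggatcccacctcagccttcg
The log2 fold change of HARS1 was -0.39 in RB1CC1KO-labelled, -0.38 in ATG7KO and -0.45 in WT cells. That of HARS2 was -1.05 in RB1CC1KO-labelled, -0.74 in ATG7KO and -0.97 in WT cells. All 6 changes were called. The exons of both genes overlap by 437 bases on opposite strands in GENCODE 29. Reads in the shared bases may have been left out as ambiguous, since whether the counting used strand is not given in the sources used here.

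Levels per kilobase of annotated exon (RPKM, from the TMM-scaled CPM) allow a comparison between genes. Cytosolic genes had a median of 59.8 RPKM in WT EBSS and 48.6 RPKM in WT full medium, and mitochondrial genes had a median of 8.70 RPKM in WT EBSS and 11.9 RPKM in WT full medium. In WT full medium, FARSA, GARS1, IARS1 and KARS1 were the highest of all 35, with FARSA at 76.1 ± 4.51 and GARS1 at 75.9 ± 2.92 RPKM (SD, n = 3), which did not differ beyond their spread. With the longest transcript as length the order changed, with GARS1 at 119.7, IARS1 at 108.9, KARS1 at 106.7, SARS1 at 99.1 and FARSA at 90.1 RPKM. CARS1 was the lowest cytosolic gene in full medium. It reached 31.1 ± 0.62 RPKM in WT EBSS, against 7.27 ± 0.57 RPKM in WT full medium. GARS1, at 237 ± 11.0 RPKM, and TARS1, at 178 ± 11.5 RPKM, led in WT EBSS. IARS2 was the highest mitochondrial gene in both media, at 53.2 ± 3.80 RPKM in EBSS and 47.2 ± 1.85 RPKM in full medium. PARS2 was the lowest in EBSS at 1.01 ± 0.03 RPKM, while SARS2 was the lowest in full medium at 1.26 ± 0.08 RPKM. Of the 3231 annotated exon bases of SARS2, 1492 are shared with another gene on the same strand. Reads there may have been left out as ambiguous, so its level per kilobase may be too low.

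Features that members share were counted beside the response in WT. Of 7 cytosolic members of the multisynthetase complex 4 rose and 1 fell, with a median log2 fold change of 0.16, and of the 12 other cytosolic genes 8 rose and 3 fell, with a median of 1.00. The counts that rose were a similar share of both sets, and 32.4% of all genes rose and 32.1% fell. The TGATGNAA core was present in 7 of the 13 genes with a promoter window that rose, namely the 7 cytosolic genes printed above. It was present in 1 of the 13 that fell (YARS2) and in 0 of 4 not called. The GCGCATGC core was present in 0 of 13 that rose and 2 of 13 that fell. The MARS2 match lies 27 bases before the start and is shown in capitals within chr2:197705316-197705375 (plus strand), where it overlaps a second match on the other strand.
MARS2: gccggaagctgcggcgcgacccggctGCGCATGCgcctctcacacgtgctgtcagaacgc

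The 2 mitochondrial genes that fell most, PARS2 and MARS2, have few exons, while AARS2, the next, has 22. MARS2 has 1 exon and PARS2 has 2 in GENCODE 29, and the other 33 members have 5 or more in their largest annotated coding transcript. Among all protein-coding genes tested, 51.9% of the 239 with 1 exon and 48.9% of the 474 with 2 exons were called lower after EBSS in WT, against 31.7% of the 12105 with 3 or more. In ATG7KO cells these shares were 56.1%, 50.8% and 29.6%, and in RB1CC1KO-labelled cells they were 59%, 57% and 31.7%. The part of exon number in the response of MARS2 and PARS2 was not tested.

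The same contrast of media was made in the other lines. In ATG7KO cells 13 of 19 cytosolic genes rose and 2 fell (median log2 fold change 0.62), and 3 of 16 mitochondrial genes rose and 11 fell (median -0.34), where 32.3% of all genes were called higher and 30.6% lower and the median of all genes was -0.01. In RB1CC1KO-labelled cells 13 cytosolic genes rose and 3 fell (median 0.57), and 2 mitochondrial genes rose and 10 fell (median -0.40), with 31.9% of all genes called higher and 33.3% lower and a median of -0.03. The calls shared by all 3 lines were 12 cytosolic genes that rose, all those called higher in WT, and RARS1 and HARS1, which fell. WARS2 rose in all 3 lines, and 9 mitochondrial genes fell in all 3, namely PARS2, MARS2, AARS2, HARS2, EARS2, LARS2, TARS2, YARS2 and NARS2. No member was called in opposite directions in 2 lines.

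VARS1 was the 1 cytosolic gene that rose in the knockout-labelled lines and was not called in WT, at 0.38 ± 0.07 in both. In WT it was called without EBSS replicate 2 (0.17, adjusted p = 0.045). The difference of its response from WT was not called, at 0.28 ± 0.09 for RB1CC1KO-labelled cells (adjusted p = 0.0591) and 0.28 ± 0.09 for ATG7KO (0.142). For RB1CC1KO-labelled cells it was called by DESeq2 (0.0338), with RLE scaling (0.0431), without the filter (0.0388) and with the replicate block (0.0177). It was also called there without RB1CC1KO EBSS replicate 2 (0.0209), RB1CC1KO full medium replicate 1 (0.0331), WT EBSS replicate 3 (0.0105) or WT full medium replicate 2 (0.0263). For ATG7KO it was called with the block (0.0487) and without WT EBSS replicate 3 (0.0335). The calls of SARS2 (0.46 ± 0.20, adjusted p = 0.0488) and FARS2 (0.28 ± 0.12, adjusted p = 0.0346) in ATG7KO cells each came close to the threshold. SARS2 was lost without ATG7KO EBSS replicate 2 or 3 (adjusted p = 0.443 and 0.0537) and without any of the 3 full medium libraries (0.184, 0.0537 and 0.0515). FARS2 was lost without ATG7KO EBSS replicate 1 or 2 (0.237 and 0.196) and without ATG7KO full medium replicate 1 or 3 (0.117 and 0.0654). CARS2, which fell in ATG7KO cells (-0.23 ± 0.07, adjusted p = 0.00453), was lost without full medium replicate 3 (0.0511). In RB1CC1KO-labelled cells FARSB (-0.19 ± 0.07, adjusted p = 0.0117) was lost without EBSS replicate 3 or full medium replicate 2 (0.0804 each), and VARS2 (0.20 ± 0.07, adjusted p = 0.0099) without EBSS replicate 1 (0.0788). RARS2, the arginine enzyme of mitochondria (-0.19 ± 0.08, adjusted p = 0.0444), was lost there without EBSS replicate 1 or 3 (0.0554 and 0.303) or any full medium library (0.0968, 0.0742 and 0.123).

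Few members differed between lines in full medium. ATG7KO cells differed from WT in 1 of 35 genes, where 4.47% of all genes were called higher and 6.07% lower. That gene was VARS2, the valine enzyme of mitochondria, at 75.4, 72.6 and 75.9 CPM in ATG7KO and 92.0, 84.7 and 91.3 CPM in WT cells, without overlap (-0.26 ± 0.07, adjusted p = 0.0103). The call was lost without ATG7KO full medium replicate 2 (adjusted p = 0.0601) and without WT full medium replicate 1 (0.0506). RB1CC1KO-labelled cells differed from WT in 1 of 35 as well, where 8.3% of all genes were higher and 8.87% lower. That gene was AARS1, at 177, 176 and 176 CPM in RB1CC1KO-labelled and 202, 189 and 204 CPM in WT cells (-0.17 ± 0.06, adjusted p = 0.0458). The AARS1 call was lost without WT full medium replicate 1 or 3 (adjusted p = 0.134 and 0.0869) and without RB1CC1KO full medium replicate 1, 2 or 3 (0.0768, 0.0755 and 0.0562). Leaving out 1 library also added calls in full medium. For RB1CC1KO-labelled cells these were CARS1 without WT replicate 2 (-0.23, adjusted p = 0.0245) and TARS2 without WT replicate 1 (0.24, 0.0432). For ATG7KO they were FARSA without ATG7KO replicate 3 (-0.26, 0.0431) and VARS1 without WT replicate 2 (-0.23, 0.0411). The summed epithelial markers were lower in both lines, at 72.3 to 82.6 CPM in RB1CC1KO-labelled and 63.0 to 67.6 CPM in ATG7KO full medium, against 103 to 113 CPM in WT full medium. They were 60.5 to 68.1 CPM in ATG7KO EBSS and 117 to 123 CPM in WT EBSS. Of 5 epithelial markers tested, 3 were called lower in RB1CC1KO-labelled and 4 in ATG7KO cells than in WT cells in full medium, and the part of these markers in the results was not tested.

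After EBSS more members were called against WT in RB1CC1KO-labelled cells than in ATG7KO cells. The ATG7KO EBSS group holds the shallowest library and the RB1CC1KO-labelled EBSS group the deepest. These lines were not tested against each other in EBSS. By edgeR's quasi-likelihood test 0 of 35 members differed between ATG7KO and WT in EBSS, with 5 at an unadjusted p below 0.05 and 1 called by DESeq2, where 6.07% of all genes were called higher and 7.17% lower. PARS2 was at -0.52 ± 0.23 in that comparison (adjusted p = 0.143), and was called without ATG7KO EBSS replicate 2 (-0.89, adjusted p = 0.0398). SARS1, at -0.14 ± 0.05 (adjusted p = 0.092), was called without ATG7KO EBSS replicate 1 (-0.20, 0.0243). Between RB1CC1KO-labelled and WT cells in EBSS 16 of 35 were called, 11 higher and 5 lower, where 14.8% of all genes were higher and 16.9% lower. PARS2 was lowest, at 0.53, 0.72 and 0.63 CPM in RB1CC1KO-labelled and 2.34, 2.44 and 2.31 CPM in WT cells, from 9, 17 and 9 reads against 33, 39 and 36 (log2 fold change -1.88 ± 0.25, adjusted p = 2.74e-07).

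AARS1 stood at 326, 305 and 321 CPM in RB1CC1KO-labelled EBSS and at 420, 396 and 433 CPM in WT EBSS, without overlap (-0.39 ± 0.06, adjusted p = 1.84e-06). SARS1 stood at 326, 338 and 314 CPM in RB1CC1KO-labelled EBSS and at 420, 427 and 406 CPM in WT EBSS, also without overlap (-0.36 ± 0.05, adjusted p = 2.79e-06). MARS2 (-0.60 ± 0.11) and LARS2 (-0.19 ± 0.06, adjusted p = 0.0176) were the others that were lower. Those that were higher were AARS2 (0.41 ± 0.09), VARS2 (0.36 ± 0.07), MARS1 (0.31 ± 0.05), VARS1 (0.29 ± 0.07), QARS1 (0.25 ± 0.06), FARSA (0.23 ± 0.08), EARS2 (0.22 ± 0.07), TARS1 (0.19 ± 0.06), GARS1 (0.19 ± 0.06), IARS1 (0.18 ± 0.06) and CARS1 (0.16 ± 0.06).

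Leaving out 1 library ended 7 of these 16 calls. LARS2 was lost without RB1CC1KO EBSS replicate 1 or 2 (adjusted p = 0.109 and 0.0737) or WT EBSS replicate 1 or 2 (0.0664 and 0.0682). CARS1 was lost without RB1CC1KO EBSS replicate 1 or 2 (0.141 and 0.0522) or WT EBSS replicate 2 or 3 (0.134 and 0.0816). FARSA was lost without RB1CC1KO EBSS replicate 3 (0.110) or WT EBSS replicate 2 (0.0756), EARS2 without RB1CC1KO EBSS replicate 3 (0.0960), and IARS1 without RB1CC1KO EBSS replicate 2 (0.0600) or WT EBSS replicate 3 (0.0586). GARS1 and TARS1 were lost without WT EBSS replicate 3 (0.0643 and 0.0749). Calls were added for IARS2 without RB1CC1KO EBSS replicate 2 or WT EBSS replicate 3 (-0.20 each, 0.0243 and 0.0244), for SARS2 without WT EBSS replicate 3 (0.76, 0.00268) and for WARS2 without RB1CC1KO EBSS replicate 1 (0.26, 0.035). Marker sums also differed between these groups, at 13.1 to 14.7 CPM in RB1CC1KO-labelled EBSS and 19.8 to 22.9 CPM in WT EBSS for the fibroblast genes, and 87.2 to 97.4 CPM in RB1CC1KO-labelled EBSS and 117 to 123 CPM in WT EBSS for the epithelial genes, and their part in these results was not tested.

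The response itself was compared between lines as a difference of log2 fold changes. Between ATG7KO and WT 0 of 35 members differed by edgeR's quasi-likelihood test, with 3 at an unadjusted p below 0.05 and 0 called by DESeq2, where 1.05% of all genes differed. Between RB1CC1KO-labelled and WT cells 6 of 35 differed, where 8.16% of all genes did. These comparisons share the WT libraries. PARS2 and MARS2 fell further in RB1CC1KO-labelled cells, SARS1 rose less, MARS1 and CARS1 rose more, and EARS2 fell less. FARSA, at 0.33 ± 0.11, just missed the threshold (adjusted p = 0.0524). It was called by DESeq2 (0.0334), with RLE scaling (0.0373), when only the compared groups were fitted (0.0391), without the filter (0.0152) and with the replicate block (0.0253). It was also called without RB1CC1KO EBSS replicate 2 (0.0198), RB1CC1KO full medium replicate 1 (0.00431) or WT full medium replicate 3 (0.0416). GARS1 (0.23 ± 0.08, adjusted p = 0.0701) was called by DESeq2 (0.0221), with the block (0.0454) and with upper-quartile scaling (0.0477). VARS2 (0.25 ± 0.10, adjusted p = 0.102) was called without RB1CC1KO EBSS replicate 2 (0.0222) or WT EBSS replicate 3 (0.0327).

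PARS2 stood at 0.53, 0.72 and 0.63 CPM in RB1CC1KO-labelled EBSS and at 15.7, 14.0 and 15.1 CPM in RB1CC1KO-labelled full medium. Its EBSS libraries lay below every other library of the series. The log2 fold change was -4.53 ± 0.19, and its difference from the WT response was -1.92 ± 0.28 (adjusted p = 1.84e-05). In ATG7KO cells PARS2 stood at 1.36, 2.17 and 1.06 CPM in EBSS and at 13.0, 12.9 and 11.5 CPM in full medium, a log2 fold change of -2.91 ± 0.18 that rests on 21, 32 and 5 reads in EBSS. RB1CC1KO-labelled cells differed from ATG7KO cells by -1.62 ± 0.31 (adjusted p = 0.00118), a call lost without ATG7KO EBSS replicate 2 (-1.20, adjusted p = 0.0794).

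MARS2 had the next strongest fall in each line. It stood at 10.4, 8.13 and 10.1 CPM in RB1CC1KO-labelled EBSS and at 52.5, 48.2 and 51.0 CPM in RB1CC1KO-labelled full medium, without overlap (-2.42 ± 0.10). The difference from the WT response was -0.82 ± 0.14 (adjusted p = 0.000101). In ATG7KO cells it stood at 10.5, 13.0 and 13.8 CPM in EBSS and at 41.9, 41.8 and 42.1 CPM in full medium (-1.79 ± 0.10). RB1CC1KO-labelled cells differed from ATG7KO cells by -0.63 ± 0.14 (adjusted p = 0.00669), a call lost without ATG7KO EBSS replicate 2 (adjusted p = 0.101) and without RB1CC1KO EBSS replicate 2 (0.0515). By edgeR's quasi-likelihood test PARS2 and MARS2 were the 2 of 35 members called between the RB1CC1KO-labelled and ATG7KO responses, where 3.28% of all genes differed. MARS1 (0.25 ± 0.08, adjusted p = 0.0716) was called by DESeq2 (0.28, 0.00407), with RLE (0.0406) or upper-quartile scaling (0.0458), when only the compared groups were fitted (0.0386) and with the replicate block (0.0487). It was also called without ATG7KO EBSS replicate 1 (0.0445) or RB1CC1KO full medium replicate 3 (0.0209). LARS2 (-0.31 ± 0.09, adjusted p = 0.0505) was called with the block (0.0386) and without RB1CC1KO EBSS replicate 3 (0.0373).

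MARS1 stood at 735, 720 and 711 CPM in RB1CC1KO-labelled EBSS and at 248, 243 and 263 CPM in RB1CC1KO-labelled full medium. The EBSS values were above those of every WT and ATG7KO library, and the response exceeded that of WT by 0.39 ± 0.08 (adjusted p = 0.000906). DDIT3, which overlaps it, stood at 133 ± 8.95 CPM in RB1CC1KO-labelled EBSS and 154 ± 2.37 CPM in WT EBSS (SD, n = 3 each). SARS1 stood at 326, 338 and 314 CPM in RB1CC1KO-labelled EBSS and at 187, 186 and 191 CPM in RB1CC1KO-labelled full medium, a log2 fold change of 0.79 ± 0.05. Its difference from the WT response was -0.37 ± 0.08 (adjusted p = 0.00172). CARS1, at 366, 342 and 335 CPM in RB1CC1KO-labelled EBSS and 66.3, 62.9 and 65.0 CPM in RB1CC1KO-labelled full medium, differed from the WT response by 0.33 ± 0.09 (adjusted p = 0.0178). That call was lost without WT full medium replicate 1 (0.27, adjusted p = 0.0724).

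EARS2 stood at 88.0, 80.9 and 95.0 CPM in RB1CC1KO-labelled EBSS and at 120, 121 and 121 CPM in RB1CC1KO-labelled full medium, without overlap. Its response differed from that of WT by 0.30 ± 0.09 (adjusted p = 0.0388). The call was lost without WT full medium replicate 1 or 3 (adjusted p = 0.0628 and 0.0615), WT EBSS replicate 1 or 2 (0.0680 and 0.0764), RB1CC1KO full medium replicate 1 (0.0574) or RB1CC1KO EBSS replicate 3 (0.149).

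**Figure D5:**
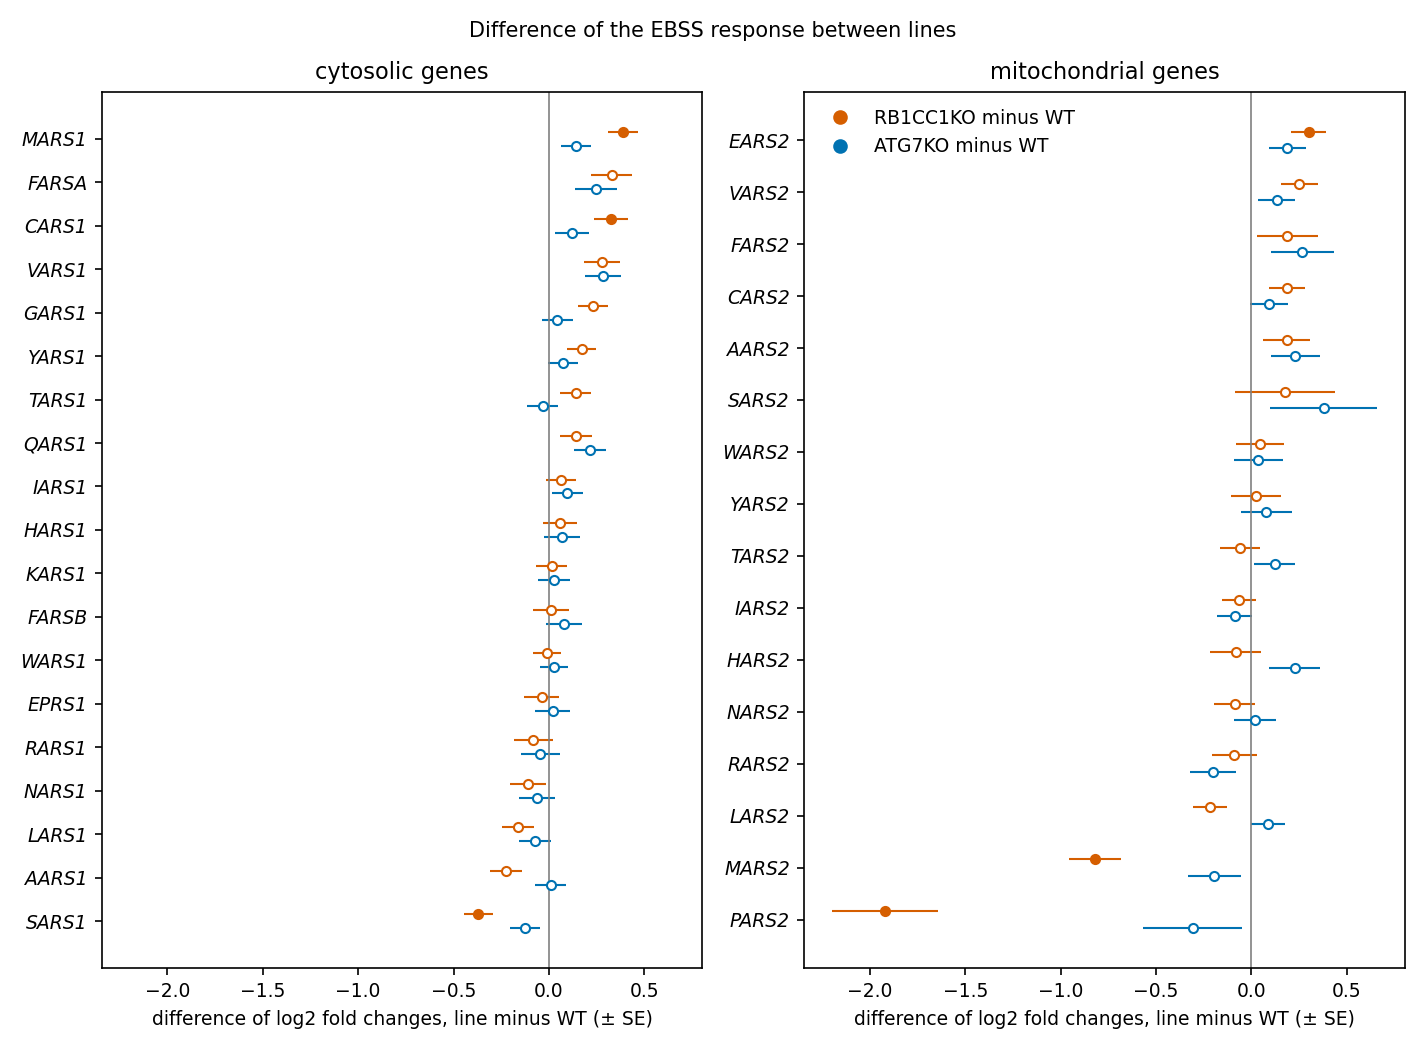
Difference of the EBSS response from that of WT (horizontal axis, difference of log2 fold changes ± SE) for each gene in RB1CC1KO-labelled and ATG7KO cells, cytosolic genes left and mitochondrial genes right. Filled points were called at an adjusted p below 0.05; these are 6 genes for the RB1CC1KO-labelled line and 0 for ATG7KO, and PARS2 and MARS2 lie farthest from 0.

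Genes that work beside the synthetases were counted from short lists. Of 13 accessory genes of tRNA charging 2 rose and 7 fell after EBSS in WT, where 32.4% of all genes were called higher and 32.1% lower. XPOT, which exports tRNA from the nucleus, stood at 721 ± 40.2 CPM in EBSS and 332 ± 12.0 CPM in full medium (SD, n = 3 each; log2 fold change 1.12 ± 0.06, adjusted p = 1.02e-17). QRSL1, a subunit of the enzyme that converts EARS2's product to glutaminyl-tRNA, rose by 0.99 ± 0.08 (adjusted p = 9.73e-13). MTFMT, which formylates the methionyl-tRNA made by MARS2, was at -1.60 ± 0.09 in RB1CC1KO-labelled, -1.03 ± 0.09 in ATG7KO and -1.01 ± 0.08 in WT cells (adjusted p = 8.64e-13 in WT).

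Of 13 mitochondrial translation factors 3 rose and 5 fell in WT, near the share of all genes called higher (32.4%) and lower (32.1%). MTRFR, a ribosome rescue factor, rose by 0.84 ± 0.08 (adjusted p = 3.05e-11), LRPPRC, which stabilises mitochondrial messages, rose by 0.60 ± 0.06 (adjusted p = 3.96e-10), and TACO1, an activator of translation of a respiratory chain subunit, was at -0.63 ± 0.09 (adjusted p = 2.91e-07). Of 12 genes of the GCN2 and ATF4 axis 9 rose and 1 fell, with a median log2 fold change of 3.25. DDIT3 was at 4.23 ± 0.08, ATF3, another stress factor, at 4.09 ± 0.09, and the asparagine-making enzyme gene ASNS at 3.13 ± 0.07, which stood at 666 ± 26.1 CPM in WT EBSS and 76.2 ± 2.31 CPM in WT full medium (SD, n = 3 each).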

How the data were processed

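The deposited tables hold raw read counts, 1 table a library, for 63677 genes and 5 summary lines, and the authors applied no normalization to them. Per the labels' protocols, libraries were made with a directional kit from poly(A) RNA and read as 75 bp single ends. Builds GRCh37 and hg19 are listed, without a role, per the submitters' processing notes, and so are the aligner STAR 2.4.2a, the counter HTSeq 0.6.1p1, and Picard; the strand setting is not given in the sources used here. Summary lines were left out: reads in no gene were 9.39 to 15.1% and ambiguous reads 2.08 to 2.42%.

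Counts were analysed in R 4.3.3 with edgeR 4.0.16 and limma 3.58.1 (filterByExpr, TMM, 1 robust quasi-likelihood fit of all 18 libraries with 6 group means, 10 comparisons). The common biological coefficient of variation was 6.72%. Adjusted p-values are Benjamini-Hochberg over all genes; SE is the log2 fold change divided by the root of F. DESeq2 1.42.0, other scalings, no filter, a stricter threshold, a replicate block, a fit of the compared groups and leaving out each library were alternatives. The method was also run on simulated data in which few genes changed and all genes shared a common spread. Most genes were called after EBSS, so that run does not check scaling under widespread change. Names and exon lengths come from GENCODE 29 (GRCh38), another build than the authors', and promoters from RefSeq. Members and lists were chosen with earlier results of these data known. By rule, values by library are given for the 6 cytosolic genes that rose most and 3 that fell most in WT, the 6 mitochondrial genes that fell most and those that rose, the 4 members with smallest p in each difference of responses, and 3 in each comparison of lines; CARS1 and EARS2 were added to the differences after their values were seen. Libraries of 1 group differed beyond sampling noise (chi-square per degree of freedom 2.33 to 11.2). Depth limits low genes such as PARS2 and SARS2, and SARS2 also shares exon bases with another gene on its strand.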

Additional observations from a re-analysis of the deposited data

Results flagged for a closer look

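The 8 results below drew attention because the EBSS response of a synthetase gene differed between 2 lines by a test of the difference itself. Each value is a difference of log2 fold changes with edgeR's adjusted p. Between RB1CC1KO-labelled and WT cells the response of PARS2 differed by -1.92 (adjusted p = 1.84e-05), that of MARS2 by -0.82 (0.000101) and that of SARS1 by -0.37 (0.00172). MARS1 differed by 0.39 (0.000906), CARS1 by 0.33 (0.0178) and EARS2 by 0.30 (0.0388). Between RB1CC1KO-labelled and ATG7KO cells PARS2 differed by -1.62 (0.00118) and MARS2 by -0.63 (0.00669). No cause of these differences was tested.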

How the results depend on the processing

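Of the counts recomputed under the alternatives 221 stayed within 1.5 times the reported count and 46 did not, and no called member changed sign. Upper-quartile scaling moved the median of all genes for EBSS to -0.17 in each line, with 37.0, 37.2 and 37.4% of calls higher in RB1CC1KO-labelled, ATG7KO and WT cells, against 48.9, 51.3 and 50.3% as reported. Class medians were then 0.43, 0.45 and 0.44 for cytosolic and -0.55, -0.51 and -0.55 for mitochondrial genes in that order of lines. Mitochondrial genes called higher were then 1, 1 and 0, and cytosolic genes called lower were 6 in RB1CC1KO-labelled and 6 in ATG7KO cells; 2 members differed between RB1CC1KO-labelled and WT cells in full medium. At an adjusted p below 0.01 mitochondrial genes called higher were 1 in WT and 1 in ATG7KO, members differing in full medium were 0 for each line, and 10 differed between RB1CC1KO-labelled and WT cells in EBSS. Without a filter the mitochondrial genes higher in ATG7KO were 1 and members differing between RB1CC1KO-labelled and WT cells in full medium 0. A fit of the compared groups gave 4 cytosolic genes lower in ATG7KO and 2 members differing between ATG7KO and WT in full medium. DESeq2 gave 1 mitochondrial gene higher in ATG7KO, and 2 and 1 members differing between ATG7KO and WT in full medium and in EBSS.

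Leaving out 1 library at a time gave 1 to 2 mitochondrial genes higher in WT, 1 to 2 in ATG7KO and 1 to 3 in RB1CC1KO-labelled cells, and 2 to 4 cytosolic genes lower in ATG7KO. Members differing from WT in full medium were 0 to 2 for each line, and those differing between ATG7KO and WT in EBSS were 0 to 1. The responses differed for 0 to 1 members between ATG7KO and WT and for 0 to 3 between RB1CC1KO-labelled and ATG7KO cells. Between RB1CC1KO-labelled and WT cells they differed for 4 to 9 members, against 6 as reported. Without WT full medium replicate 1, uncalled log2 values turned to -0.00267 for ATG7 between RB1CC1KO-labelled and WT cells in full medium (up to 0.0874 without replicate 3) and to -0.0507 for RB1CC1 between ATG7KO and WT cells (up to 0.0893). FARSA after EBSS in RB1CC1KO-labelled cells ran from -0.139 to 0.0357 when full medium replicate 2 or 1 was left out. IARS2 turned to -0.0351 in RB1CC1KO-labelled and -0.0762 in ATG7KO cells after EBSS with upper-quartile scaling. The causes were not tested.

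Same-numbered replicates paired weakly at most: correlations of their deviations ran from -0.084 to 0.221. The highest involved RB1CC1KO-labelled cells, at 0.221 between media for replicate 2. Against WT they were 0.128 for replicate 1 in full medium and 0.103 for replicate 2 in EBSS. With a replicate block 3 members differed in full medium for each line, and 1 and 4 differed in response for ATG7KO against WT and RB1CC1KO-labelled against ATG7KO cells. With the longest transcript as length, median levels in WT full medium were 70.8 RPKM for cytosolic and 14.6 RPKM for mitochondrial genes. With TGATGCAA, 0 mitochondrial promoters matched.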
